A study of Mus musculus with 24 samples.

Results

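Amacrine cells are the interneurons of the inner retina, and 10 genes that mark them by transmitter or by identity were followed here: the cholinergic genes Chat, Slc18a3 and Slc5a7, the GABAergic genes Gad1, Gad2 and Slc32a1, the glycinergic gene Slc6a9, the vesicular glutamate transporter gene Slc17a8, and the transcription factor genes Tfap2a and Tfap2b. They were taken by symbol from the 28802 genes of the table. All 10 were present and passed the limit of a mean of at least 0.5 cpm (counts per M reads, with M for mega), as did 16400 genes in all. Whole retinas were sequenced as total RNA after ribosomal RNA was depleted, to compare expression in mice of different genetic background. The 24 libraries came from wild type mice at postnatal day 28, with 3 libraries for each of the inbred strains 129S1/Svlmj, C57BL/6J, NOD/ShiLtJ, A/J, PWK/PhJ, WSB/EiJ, NZO/HlLtJ and CAST/EiJ. No group was treated, and the strain is the only difference between groups that the labels give. Replicates are numbered here in the order of deposition, since the labels give no replicate numbers. The labels do not state sex, litter or sequencing batch, nor how many animals stand behind a library.

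Amacrine cells receive input from bipolar cells and act on bipolar cells, ganglion cells and each other. Most of them release GABA or glycine. Starburst amacrine cells release both acetylcholine and GABA and are known for their part in the detection of motion direction, and a small class carries the vesicular glutamate transporter VGLUT3. Several of these genes are also used by other retinal cells, since horizontal cells can make GABA and Müller glia take up glycine. In bulk retina, fewer cells of a type and less RNA per cell cannot be told apart.

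The libraries had the makeup of retina. The phototransduction genes Gnat1 and Sag, which mark rods, averaged 2031 and 1639 cpm over the libraries. Estimated from the value of 1 read among the lowest values of each library, depth was 57.6 to 78.2 M reads. At these estimates the member with the fewest reads, Slc18a3, had a median of 65.5 reads per library (34.0 to 203), and Gad1, with the most, had 4230 (3330 to 5240).

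Per kilobase of annotated exon, which puts levels of different genes on a rough common scale, Gad1 had the highest mean over the 24 libraries (8.31 cpm per kb). Slc6a9 (6.68), Tfap2b (4.62), Slc32a1 (3.63, on the same scale) and Gad2 (2.63) followed. The levels of Slc5a7 (1.06), Slc17a8 (0.969), Chat (0.639), Tfap2a (0.452) and Slc18a3 (0.443) were lower, again in cpm per kb. The GABA and glycine genes were thus well above the genes of the sparser cholinergic and VGLUT3 cells on this scale. The length takes in the exons of all annotated transcripts, of which Slc32a1 has 1 and Slc6a9 has 12, whether or not they are used in retina. Of the exon bases of Slc6a9, 30.2% lie opposite exons of other genes, whose part in its level was not tested.

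The cholinergic genes were highest in PWK/PhJ. Chat encodes choline acetyltransferase, the enzyme that makes acetylcholine. Chat was at 5.09, 4.26 and 4.87 cpm in PWK/PhJ, 3.19, 4.33 and 3.50 in C57BL/6J and 2.89, 2.80 and 2.68 in CAST/EiJ. It was at 2.81, 3.15 and 2.38 cpm in 129S1/Svlmj, 2.90, 2.69 and 2.64 in A/J and 2.61, 2.55 and 2.69 in NOD/ShiLtJ. In WSB/EiJ it was at 2.99, 2.19 and 2.50 cpm, and in NZO/HlLtJ at 2.08, 2.19 and 2.16. The PWK/PhJ libraries were above all others except C57BL/6J replicate 2, which lay above the lowest of them, and the NZO/HlLtJ libraries were the lowest, with WSB/EiJ replicate 2 next to the highest of them.

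The mean of Chat was 4.74 ± 0.427 cpm (SD, n = 3) in PWK/PhJ and 2.14 ± 0.0562 in NZO/HlLtJ, a difference of 0.87 ± 0.09 (SE) on the log2(cpm + 1) scale (limma, q = 1.04e-08 over all genes tested). This scale understates differences of genes with low values. PWK/PhJ was above C57BL/6J (q = 0.00274), and C57BL/6J above CAST/EiJ, the next in order (log2 difference 0.2958, q = 0.00305). The difference of 129S1/Svlmj from C57BL/6J was of like size (-0.3045) but was not called (q = 0.0103), since q-values were computed within each pair. From CAST/EiJ down through 129S1/Svlmj, A/J, NOD/ShiLtJ, WSB/EiJ and NZO/HlLtJ no 2 neighbours passed the test. Of the 28 pairs of strains, 13 were called for Chat at a q-value under 0.01 (46.4%), against 30.5% of the tests of all genes over the same pairs and between 12.6% and 46.3% of genes in a single pair. Over the 24 libraries the genes most like it were Nsun4, which acts in mitochondrial ribosome assembly (Pearson's r = 0.903), and Myo7a, which encodes an unconventional myosin (r = 0.901). Both had their highest mean in PWK/PhJ and their lowest in NZO/HlLtJ, and these values of r are descriptive, since the libraries of a strain move together.

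Slc18a3 encodes the vesicular acetylcholine transporter, which fills synaptic vesicles. It was at 1.83, 1.96 and 2.88 cpm in PWK/PhJ, 1.23, 1.04 and 1.06 in A/J and 0.946, 1.19 and 1.00 in CAST/EiJ. The values of Slc18a3 were 0.895, 1.01 and 1.04 cpm in C57BL/6J, 0.955, 0.738 and 0.938 in WSB/EiJ and 0.615, 0.719 and 1.15 in NZO/HlLtJ. The lowest were 0.630, 0.658 and 0.963 cpm in NOD/ShiLtJ and 0.732, 0.931 and 0.543 in 129S1/Svlmj. Every PWK/PhJ library was above every library of the other strains, while most of the other strains overlapped with each other.

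Its mean was 2.23 ± 0.571 cpm in PWK/PhJ and 0.735 ± 0.194 in 129S1/Svlmj (log2 difference 0.89 ± 0.11, limma, q = 2.96e-07). With 0.1 in place of 1 added before the logarithm, this difference was 1.48. All 7 pairs that were called for Slc18a3 were those with PWK/PhJ, and no 2 neighbours in the order from A/J to 129S1/Svlmj passed the test. Counting error alone gives Slc18a3 a coefficient of variation of 12.6%, and within strains it was 21.2%. The most alike genes were Rfx7, a transcription factor gene (r = 0.905), and Speg, a kinase gene of striated muscle (r = 0.900), both highest in PWK/PhJ.

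Slc5a7 encodes the high-affinity choline transporter, which returns choline to the nerve ending. Slc5a7 stood at 9.06, 9.57 and 9.87 cpm in PWK/PhJ, 7.65, 7.65 and 8.15 in CAST/EiJ and 7.22, 6.39 and 6.50 in 129S1/Svlmj. It had 5.94, 6.36 and 7.001 cpm in C57BL/6J, 5.05, 6.16 and 5.22 in WSB/EiJ and 4.74, 4.78 and 5.35 in A/J. In NOD/ShiLtJ the libraries had 4.00, 3.87 and 3.29 cpm, and in NZO/HlLtJ 3.56, 3.12 and 3.03. The PWK/PhJ libraries were again above all others, and those of NOD/ShiLtJ and NZO/HlLtJ, which overlapped with each other, lay below all others.

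The mean of Slc5a7 fell from 9.50 ± 0.405 cpm in PWK/PhJ to 3.23 ± 0.283 in NZO/HlLtJ, a ratio of 2.94 (log2 difference 1.31 ± 0.08, limma, q = 6.66e-13). It was called in 23 of the 28 pairs, the most of any member. In its order of strains, PWK/PhJ was above CAST/EiJ (q = 0.00344) and A/J above NOD/ShiLtJ (q = 0.00165), while CAST/EiJ and 129S1/Svlmj (q = 0.0137), 129S1/Svlmj and C57BL/6J, C57BL/6J and WSB/EiJ (q = 0.0208), WSB/EiJ and A/J, and NOD/ShiLtJ and NZO/HlLtJ did not pass the test. Strain accounted for 96.7% of the variance of Slc5a7 over the libraries, against a median of 75.5% over all genes tested. Most like it were Nek11, a cell cycle kinase gene (r = 0.888), and Brca1, a DNA repair gene (r = 0.882), both highest in PWK/PhJ.

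**Figure D1:**
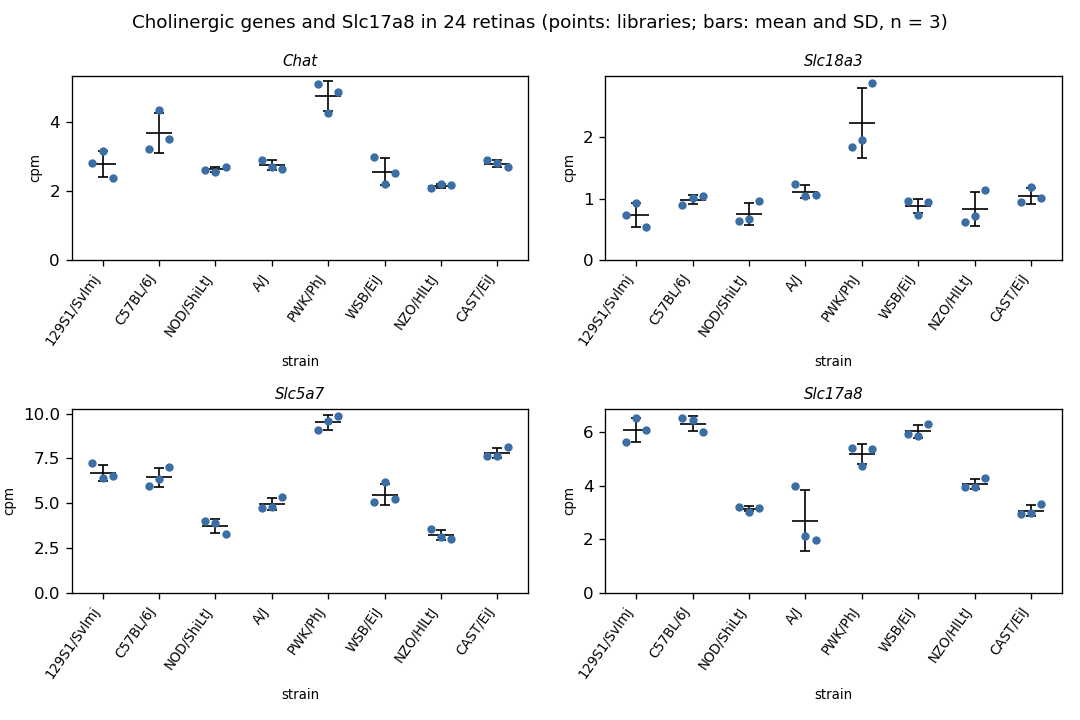
Expression in cpm (vertical axes, from 0) of Chat, Slc18a3, Slc5a7 and Slc17a8 in each strain (horizontal axes). Points are libraries, and bars give the mean and SD of 3 libraries. PWK/PhJ had the highest mean of the cholinergic genes (4.74, 2.23 and 9.50 cpm), and for Slc17a8 1 A/J library, at 4.00 cpm, stood apart from the other A/J libraries at 2.10 and 1.98 cpm.

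The cholinergic genes did not share an order of strains below PWK/PhJ. Against the mean of the other strains (limma), PWK/PhJ was higher by 0.62 ± 0.07 in Chat (q = 1.65e-08), by 0.75 ± 0.09 in Slc18a3 (q = 3.36e-08) and by 0.74 ± 0.06 in Slc5a7 (q = 8.23e-11), in log2(cpm + 1). In NZO/HlLtJ, Chat was lower by this comparison (log2 difference -0.37 ± 0.07, q = 7.29e-05), as was Slc5a7 (-0.76 ± 0.06, q = 2.51e-10), while Slc18a3 did not pass the test (-0.18 ± 0.09, q = 0.0486). In CAST/EiJ, Slc5a7 was higher (0.45 ± 0.06, q = 2.19e-07), and Chat (-0.06 ± 0.07) and Slc18a3 (0.02 ± 0.09) did not pass. Within libraries, the ratio of Slc5a7 to Chat per kb averaged 2.34 ± 0.175 in CAST/EiJ and 1.19 ± 0.145 in NOD/ShiLtJ.

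Chat and Slc18a3 share a locus. In the GENCODE M21 annotation of GRCm38, Chat (ENSMUSG00000021919) runs from 32408203 to 32465989 on the minus strand of chromosome 14, and Slc18a3 (ENSMUSG00000100241), a gene with 1 transcript, lies within it on the same strand from 32462438 to 32464850. It falls wholly in an intron of 4 of the 8 annotated Chat transcripts, and no exon of Chat overlaps it. Reads of unspliced Chat RNA would therefore fall on Slc18a3, and their part in its values was not tested. Slc5a7 (ENSMUSG00000023945) is on another chromosome, at 54273590 to 54299034 on the minus strand of chromosome 17.

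Because these genes were highest together in PWK/PhJ, their promoters are shown (RefSeq, GRCm38.p6; 250 bases before to 50 bases after the start, 5′ to 3′ on the gene's strand). They are reference sequences of C57BL/6J, and those of PWK/PhJ were not used here. Capitals mark matches of GCCNNNGGC, the core bound by AP-2 factors such as those encoded by Tfap2a and Tfap2b, and of CANNTG, the E-box of basic helix-loop-helix factors. Each motif reads the same on both strands, and in places matches touch or overlap. The windows are chr14:32465860-32466159 for Chat, chr14:32464801-32465100 for Slc18a3 and chr17:54298985-54299284 for Slc5a7, all on the minus strand.
Chat: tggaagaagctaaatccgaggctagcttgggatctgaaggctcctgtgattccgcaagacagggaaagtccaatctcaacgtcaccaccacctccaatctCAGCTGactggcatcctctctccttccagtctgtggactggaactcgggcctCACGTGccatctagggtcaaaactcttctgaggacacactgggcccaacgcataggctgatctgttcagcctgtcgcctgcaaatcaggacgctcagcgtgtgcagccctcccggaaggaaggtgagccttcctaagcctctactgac
Slc18a3: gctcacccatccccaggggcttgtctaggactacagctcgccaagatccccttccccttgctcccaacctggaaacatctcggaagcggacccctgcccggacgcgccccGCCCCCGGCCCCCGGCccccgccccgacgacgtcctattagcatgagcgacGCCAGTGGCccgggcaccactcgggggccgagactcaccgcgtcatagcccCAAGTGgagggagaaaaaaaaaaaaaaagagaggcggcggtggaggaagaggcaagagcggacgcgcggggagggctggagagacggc
Slc5a7: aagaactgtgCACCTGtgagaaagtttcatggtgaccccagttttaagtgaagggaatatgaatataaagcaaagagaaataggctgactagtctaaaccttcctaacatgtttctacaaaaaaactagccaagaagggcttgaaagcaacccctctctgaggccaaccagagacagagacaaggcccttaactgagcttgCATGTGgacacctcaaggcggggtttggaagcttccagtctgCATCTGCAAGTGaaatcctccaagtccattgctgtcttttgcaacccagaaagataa
The window of Slc18a3 lies inside the Chat gene and held 3 matches of GCCNNNGGC, of which 2 overlap, and 1 of CANNTG. That of Chat held 0 and 2, among them CACGTG, and that of Slc5a7 held 0 and 4. Of the 32851 promoters in the table, 16.6% held GCCNNNGGC, 72.3% held CANNTG and 7.15% held CACGTG. The GC content was 67.0% for Slc18a3, 55.7% for Chat and 44.7% for Slc5a7, with a median of 52.7% over all promoters. A match is a stretch of letters and does not show that a factor binds there.

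The receptors and enzymes around acetylcholine did not follow the 3 transmitter genes. Of 18 listed genes (nicotinic and muscarinic receptor subunits, cholinesterases and a choline transporter), 15 were tested, and 180 of their 420 tests over pairs of strains were called (42.9%, against 30.5% over all genes). In PWK/PhJ against the other strains, 5 of the 15 were higher (26.6% of all genes) and 7 lower (22.8%), with a median log2 difference of -0.14, against 0.02 over all genes. The 3 tested genes with the largest ratio of highest to lowest mean were nicotinic receptor subunits. Chrna2 averaged 1.84 ± 0.0408 cpm in C57BL/6J, between 1.28 and 1.72 in 129S1/Svlmj, NOD/ShiLtJ, A/J, WSB/EiJ and NZO/HlLtJ, 0.234 in CAST/EiJ and 0.0359 in PWK/PhJ, where 3 reads equal 0.0426 to 0.0512 cpm. All strains were mapped to the C57BL/6J genome, and the part of mapping in the low values of CAST/EiJ and PWK/PhJ was not tested. Chrna5 ranged from 0.592 ± 0.0963 cpm in PWK/PhJ to 3.57 ± 0.304 in NZO/HlLtJ (q = 1.01e-12), and its next highest mean was 1.64 in C57BL/6J. Chrnb4 ranged from 0.397 ± 0.113 cpm in NZO/HlLtJ to 0.922 ± 0.0790 in WSB/EiJ (q = 1.73e-05).

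The enzymes that make GABA differed by less. Gad1 and Gad2 encode the forms GAD67 and GAD65 of glutamate decarboxylase. Gad1 was at 74.2, 72.9 and 72.5 cpm in WSB/EiJ, 67.5, 67.2 and 68.2 in CAST/EiJ and 66.5, 67.0 and 66.1 in 129S1/Svlmj. It was at 66.2, 64.3 and 60.7 cpm in PWK/PhJ, 59.3, 64.7 and 65.0 in C57BL/6J and 61.0, 60.5 and 64.4 in A/J. In NOD/ShiLtJ Gad1 had 57.4, 57.6 and 55.6 cpm, and in NZO/HlLtJ 58.2, 55.1 and 52.2. The WSB/EiJ libraries were above all others, and those of NZO/HlLtJ and NOD/ShiLtJ were below all others and overlapped with each other.

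Gad1 averaged 73.2 ± 0.865 cpm in WSB/EiJ and 55.2 ± 3.03 in NZO/HlLtJ, a ratio of 1.33 (log2 difference 0.40 ± 0.04, limma, q = 6.92e-08), and 15 of 28 pairs were called. No 2 neighbours in its order passed the test, from WSB/EiJ and CAST/EiJ (q = 0.0122) to NOD/ShiLtJ and NZO/HlLtJ (q = 0.262). Against the other strains, Gad1 was higher in WSB/EiJ (log2 difference 0.24 ± 0.03, q = 1.90e-06) and CAST/EiJ (0.11 ± 0.03, q = 0.00262) and lower in NZO/HlLtJ (-0.22 ± 0.03, q = 6.64e-06) and NOD/ShiLtJ (-0.17 ± 0.03, q = 0.000138). The call in CAST/EiJ was lost without its replicate 1 or its replicate 3. Baz2b, a bromodomain gene (r = 0.827), and Gpsm3, a modulator of G-protein signalling (r = 0.820), were most like Gad1.

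Gad2 had 19.2, 19.2 and 20.5 cpm in CAST/EiJ, 19.8, 19.8 and 17.6 in A/J and 16.4, 17.2 and 17.3 in PWK/PhJ. In 129S1/Svlmj it had 15.5, 14.9 and 15.5 cpm, in WSB/EiJ 12.9, 14.2 and 12.8 and in NZO/HlLtJ 12.9, 13.8 and 12.9. The values were 13.0, 12.9 and 13.8 cpm in C57BL/6J and 12.4, 13.6 and 12.7 in NOD/ShiLtJ. CAST/EiJ and A/J thus had the highest values of Gad2 (17.6 cpm or more), followed by PWK/PhJ (16.4 to 17.3) and 129S1/Svlmj (14.9 to 15.5). The libraries of the lower group of 4 strains overlapped between 12.4 and 14.2 cpm.

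The means of Gad2 were 19.6 ± 0.757 cpm in CAST/EiJ and 12.9 ± 0.629 in NOD/ShiLtJ (log2 difference 0.57 ± 0.05, limma, q = 2.75e-09), and 20 of 28 pairs were called. Neighbours passed the test between A/J and PWK/PhJ (q = 0.00593) and between 129S1/Svlmj and WSB/EiJ (q = 0.00386). CAST/EiJ and A/J, PWK/PhJ and 129S1/Svlmj (q = 0.0121), and the 4 lowest strains did not. Against the other strains Gad2 was higher in CAST/EiJ (0.39 ± 0.04, q = 8.45e-09), A/J (0.35 ± 0.04, q = 2.35e-07) and PWK/PhJ (0.16 ± 0.04, q = 0.000501), and lower in NOD/ShiLtJ (-0.26 ± 0.04), C57BL/6J (-0.22 ± 0.04), NZO/HlLtJ (-0.22 ± 0.04) and WSB/EiJ (-0.21 ± 0.04; largest q of these 4 0.000113). The call in PWK/PhJ was lost with quantile normalization, and that in C57BL/6J when CAST/EiJ and PWK/PhJ were left out of the comparison. Tuba1c, a tubulin gene (r = 0.913), and Pigf, a gene for synthesis of the GPI anchor (r = 0.897), were most like Gad2, and both were highest in CAST/EiJ and lowest in WSB/EiJ.

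The balance of both enzymes differed between strains. Per kb of exon, Gad1 was 4.25 ± 0.256 times Gad2 in WSB/EiJ, where Gad1 was highest and Gad2 in its lower group, and 2.51 ± 0.259 times in A/J. The ratio was 2.65 ± 0.0817 in CAST/EiJ, 2.90 ± 0.206 in PWK/PhJ, 3.21 ± 0.222 in NZO/HlLtJ, 3.35 ± 0.0955 in 129S1/Svlmj, 3.39 ± 0.153 in NOD/ShiLtJ and 3.67 ± 0.178 in C57BL/6J (n = 3 each). All WSB/EiJ libraries (3.95 to 4.41) were above every other library, of which the highest, C57BL/6J replicate 2, had 3.87.

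Slc32a1 encodes the vesicular inhibitory amino acid transporter VGAT, which loads both GABA and glycine into vesicles. Slc32a1 was at 10.7, 11.7 and 13.9 cpm in PWK/PhJ, 11.4, 8.42 and 13.1 in WSB/EiJ and 10.04, 11.9 and 10.6 in A/J. It was at 10.6, 8.41 and 12.7 cpm in NOD/ShiLtJ, 8.34, 9.73 and 11.3 in NZO/HlLtJ and 7.25, 11.8 and 9.88 in C57BL/6J. In 129S1/Svlmj it was at 9.10, 9.99 and 7.29 cpm and in CAST/EiJ at 7.61, 10.2 and 7.39. The libraries of a strain were spread widely and most strains overlapped, although all PWK/PhJ libraries were above all CAST/EiJ libraries.

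The coefficient of variation of Slc32a1 within strains was 17.7%, with 3.87% from counting error, the widest gap between these values among the members. In 1 of 28 pairs Slc32a1 was called, PWK/PhJ (12.1 ± 1.61 cpm) against CAST/EiJ (8.40 ± 1.56 cpm; log2 difference 0.49 ± 0.17, limma, q = 0.00720, Benjamini-Hochberg adjusted p = 0.0214). This call was lost without PWK/PhJ replicate 2 (q = 0.0160) or 3 (q = 0.0365), without CAST/EiJ replicate 1 (q = 0.0295) or 3 (q = 0.0336), and with no filter on low values (q = 0.0210). No 2 neighbours passed the test. The called pair was that of the highest and lowest mean, picked from these data, and limma's F-test over all strains had an unadjusted p of 0.133. Kcnh2, a potassium channel gene (r = 0.927), and Aatk, a kinase gene of neurons (r = 0.922), were most like Slc32a1.

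Around these enzymes, 22 genes of GABA transport, breakdown and reception were listed, of which 21 were tested, and 229 of their 588 tests over pairs were called (38.9%, against 30.5% over all genes). The named genes were Slc6a13, a GABA transporter gene (0.416 ± 0.0785 cpm in NZO/HlLtJ to 3.17 ± 0.891 in C57BL/6J, q = 0.00117), and the receptor subunit genes Gabra2 and Gabra4. Gabra2 was at 26.4 ± 0.664 cpm in PWK/PhJ and at 7.79 ± 0.489 in C57BL/6J (q = 3.30e-15), and the other strains lay between 12.0 and 16.5 cpm. Gabra4 was at 8.36 ± 0.667 cpm in PWK/PhJ and 6.65 in CAST/EiJ, and between 2.65 and 3.98 cpm in the others.

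Slc6a9 encodes the glycine transporter GLYT1, carried by glycinergic amacrine cells and by glia. Slc6a9 was at 37.9, 39.9 and 38.0 cpm in A/J, 39.6, 33.5 and 36.6 in WSB/EiJ and 33.4, 36.3 and 38.9 in NZO/HlLtJ. It was at 33.8, 30.9 and 35.8 cpm in PWK/PhJ, 28.5, 35.7 and 36.1 in C57BL/6J and 30.4, 36.2 and 30.2 in 129S1/Svlmj. In CAST/EiJ it was at 32.6, 34.2 and 29.7 cpm and in NOD/ShiLtJ at 31.6, 29.4 and 34.9. All A/J libraries were above all libraries of PWK/PhJ, C57BL/6J, 129S1/Svlmj, CAST/EiJ and NOD/ShiLtJ, and these other strains overlapped with each other.

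The mean of Slc6a9 was 38.6 ± 1.13 cpm in A/J and 32.0 ± 2.76 in NOD/ShiLtJ, a ratio of 1.21 that did not pass the test (log2 difference 0.27 ± 0.09, limma, q = 0.0228) but did so after median-ratio scaling (q = 0.00720) or quantile normalization (q = 0.00647). A/J against CAST/EiJ (0.26 ± 0.09, q = 0.00605) was the 1 pair of 28 called, and no neighbours passed. Part of the gene is read from both strands: 27.8% of its exon bases lie opposite exons of Ccdc24, which averaged 69.8 cpm. Exons of Gm17114 lie opposite 9.94% of them and those of B4galt2 opposite 0.895%. The kit marks the strand, but the sources used here do not say whether the counting used it. Ccdc24 had its lowest mean in CAST/EiJ (25.4 ± 0.469 cpm) and its highest in WSB/EiJ (102.3 ± 11.6). In A/J, the other strain of the called pair, Ccdc24 averaged 92.4 ± 1.68 cpm, and its part in that call was not tested. Over the libraries, r between Ccdc24 and Slc6a9 was 0.467. Camta2, which encodes a calmodulin-binding transcription activator (r = 0.862), and Cntrob, a centriole gene (r = 0.852), were most like Slc6a9.

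**Figure D2:**
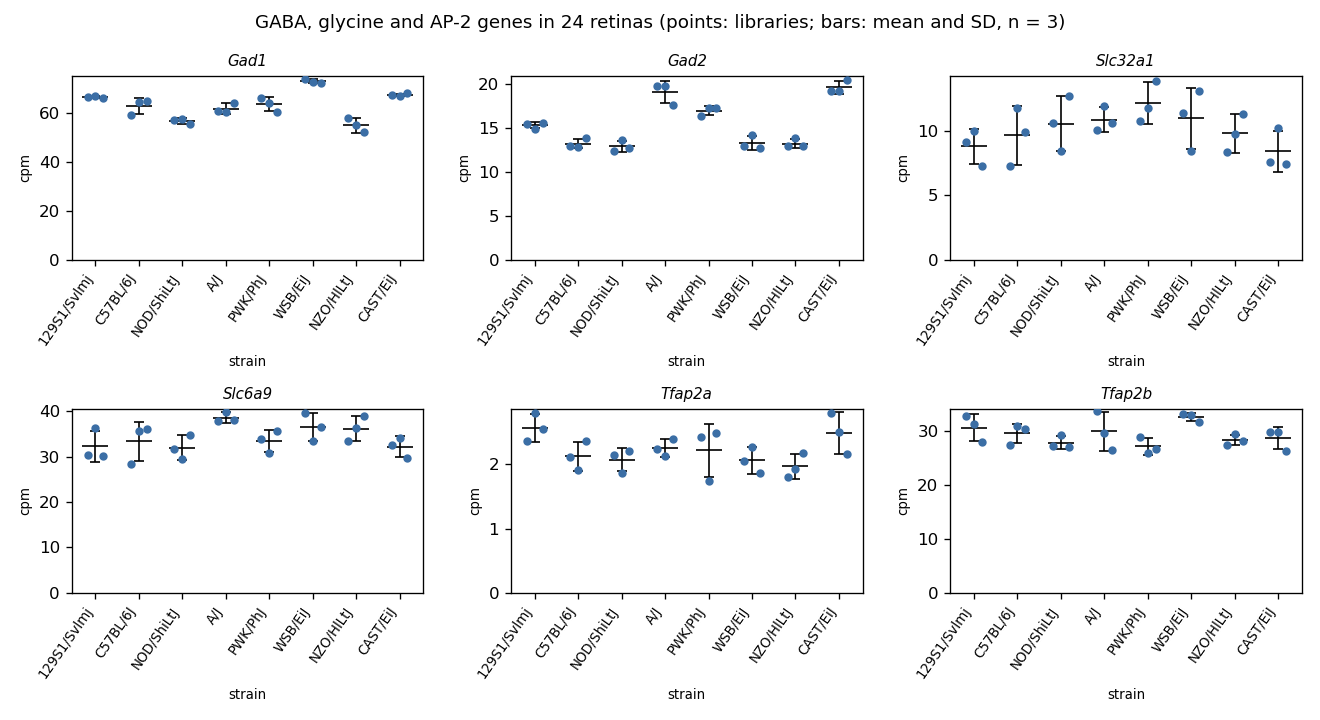
Expression in cpm (vertical axes, from 0) of Gad1, Gad2, Slc32a1, Slc6a9, Tfap2a and Tfap2b in each strain (horizontal axes). Points are libraries, and bars give the mean and SD of 3 libraries. Gad1 spans 52.2 to 74.2 cpm and Gad2 12.4 to 20.5 cpm with little spread within strains, while the libraries of a strain are further apart for Slc32a1.

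Of 10 further glycine genes (the transporter Slc6a5, receptor subunits, gephyrin and the glycine cleavage system), all were tested, and 116 of 280 tests over pairs were called (41.4%, against 30.5% over all genes). Slc6a5, the glycine transporter GLYT2 of glycinergic neurons, averaged 2.98 ± 0.0789 cpm in PWK/PhJ and 5.23 ± 0.294 in WSB/EiJ (q = 1.38e-08). Gcsh, a protein of the cleavage system, stood at 2.72 ± 0.161 cpm in CAST/EiJ and at 5.63 to 7.33 in the other strains, and Gldc, its decarboxylase, ranged from 5.25 ± 0.353 in WSB/EiJ to 12.5 ± 3.05 in 129S1/Svlmj (q = 1.83e-07).

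Slc17a8 encodes VGLUT3. It was at 6.53, 6.44 and 5.99 cpm in C57BL/6J, 5.64, 6.54 and 6.08 in 129S1/Svlmj and 5.94, 5.85 and 6.30 in WSB/EiJ. Slc17a8 had 5.39, 4.74 and 5.38 cpm in PWK/PhJ, 3.97, 3.95 and 4.28 in NZO/HlLtJ and 3.22, 3.02 and 3.18 in NOD/ShiLtJ. In CAST/EiJ it had 2.93, 2.97 and 3.32 cpm, and in A/J 4.00, 2.10 and 1.98. The strains fell into a higher group (C57BL/6J, 129S1/Svlmj, WSB/EiJ and PWK/PhJ, with 4.74 cpm as the lowest value) and a lower group (with 4.28 cpm as the highest), which did not overlap.

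A/J replicate 1 stood apart, at 4.00 cpm against 2.10 and 1.98 in the other A/J libraries. The same library had the lowest summed pigment epithelium markers of A/J (12.2 cpm, against 32.3 and 56.5), and whether this is related was not tested. The mean of Slc17a8 was 6.32 ± 0.289 cpm in C57BL/6J and 2.69 ± 1.13 in A/J (ratio 2.35, log2 difference 1.03 ± 0.12, limma, q = 3.31e-07), and the log2 difference was 1.27 without A/J replicate 1. Of the 28 pairs 16 were called, yet no 2 neighbours passed the test (PWK/PhJ and NZO/HlLtJ had q = 0.0174). Against the other strains Slc17a8 was higher in C57BL/6J (0.51 ± 0.09, q = 6.21e-05), 129S1/Svlmj (0.46 ± 0.09) and WSB/EiJ (0.45 ± 0.09; largest q of these 3 0.00016) and lower in A/J (-0.66 ± 0.09, q = 1.86e-06), CAST/EiJ (-0.46 ± 0.09, q = 5.48e-05) and NOD/ShiLtJ (-0.43 ± 0.09, q = 0.00036).

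Grin3a, which encodes an NMDA receptor subunit (r = 0.875), and Pvalb, which encodes parvalbumin (r = 0.844), were most like Slc17a8, and both were lowest in A/J. The other vesicular glutamate transporters, of bipolar cells and photoreceptors (Slc17a7) and of ganglion cells (Slc17a6), did not share its order. Slc17a7 was at 326.4 ± 35.1 cpm in PWK/PhJ and 200.3 ± 20.8 in 129S1/Svlmj (q = 4.48e-05), and Slc17a6 at 24.0 ± 1.19 in PWK/PhJ and 18.7 ± 1.06 in CAST/EiJ (q = 1.27e-06).

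Tfap2a and Tfap2b encode the transcription factors AP-2α and AP-2β, which mark amacrine and horizontal cells. Tfap2b was at 33.1, 32.8 and 31.7 cpm in WSB/EiJ, 32.7, 31.2 and 27.8 in 129S1/Svlmj and 33.6, 29.6 and 26.4 in A/J. It was at 27.4, 30.8 and 30.2 cpm in C57BL/6J, 29.8, 29.8 and 26.3 in CAST/EiJ and 27.4, 29.4 and 28.0 in NZO/HlLtJ. In NOD/ShiLtJ it was at 27.2, 29.1 and 27.1 cpm and in PWK/PhJ at 28.9, 25.8 and 26.5. The WSB/EiJ libraries were above all others except A/J replicate 1 and 129S1/Svlmj replicate 1, and the other strains overlapped.

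Tfap2b averaged 32.5 ± 0.736 cpm in WSB/EiJ and 27.1 ± 1.60 in PWK/PhJ (ratio 1.20, log2 difference 0.26 ± 0.07, limma, q = 0.00191), the 1 pair of 28 called, which was lost without PWK/PhJ replicate 2 (q = 0.0127). With the pigment epithelium sum as a covariate, chosen after the data were seen, this difference was 0.44. No neighbours passed. Against the other strains it was higher in WSB/EiJ (0.17 ± 0.06, q = 0.00573). That call was lost without any 1 of the 3 WSB/EiJ libraries, with Xist as a covariate, with no filter, and when CAST/EiJ and PWK/PhJ were left out of the comparison. Cmtm8, of the chemokine-like factor family (r = 0.715), and the clock gene Per2 (r = 0.693) were most like it.

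Tfap2a was at 2.36, 2.79 and 2.55 cpm in 129S1/Svlmj, 2.80, 2.50 and 2.15 in CAST/EiJ and 2.24, 2.12 and 2.39 in A/J. It had 2.43, 1.74 and 2.48 cpm in PWK/PhJ, 2.11, 1.91 and 2.36 in C57BL/6J and 2.14, 1.87 and 2.20 in NOD/ShiLtJ. In WSB/EiJ Tfap2a had 2.05, 2.27 and 1.86 cpm and in NZO/HlLtJ 1.80, 1.93 and 2.18. Most strains overlapped, within a whole range of 1.74 to 2.80 cpm. The mean was 2.57 ± 0.218 cpm in 129S1/Svlmj and 1.97 ± 0.193 in NZO/HlLtJ, which did not pass the test (log2 difference 0.27 ± 0.09, limma, q = 0.0235), and 0 of 28 pairs were called (5 had an unadjusted p under 0.05). The genes most like Tfap2a, the long non-coding RNA Gm10605 (r = 0.683) and Gng12, a G-protein subunit gene (r = 0.669), were less alike than those of any other member. Per kb, Tfap2b was between 8.97 ± 0.629 (CAST/EiJ) and 12.3 ± 1.02 (WSB/EiJ) times Tfap2a.

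Seen by strain, the called members had a single direction in PWK/PhJ, NOD/ShiLtJ and NZO/HlLtJ. In PWK/PhJ, 4 members were higher than in the other strains (Chat, Slc18a3, Slc5a7 and Gad2; 26.6% of all genes were called higher) and 0 lower (22.8% of all genes; 1 member at an unadjusted p under 0.05, limma). In NOD/ShiLtJ, 0 were higher (14.9% of all genes; 0 members at an unadjusted p under 0.05, limma) and 4 lower (Slc5a7, Gad1, Gad2 and Slc17a8; 9.14% of all genes). In NZO/HlLtJ, 0 were higher (12.7%; 0 at an unadjusted p under 0.05, limma) and 4 lower (Chat, Slc5a7, Gad1 and Gad2; 13.2%). With quantile normalization, with the pigment epithelium sum as a covariate (chosen after the data were seen) and without A/J replicate 3, Tfap2b, which had a log2 difference of -0.12, was also called in PWK/PhJ. The single direction in PWK/PhJ thus did not hold under these settings. With quantile normalization and with that covariate, Gad2 was no longer called there. The median log2 difference of the 10 members was 0.20 in PWK/PhJ, -0.16 in NOD/ShiLtJ and -0.15 in NZO/HlLtJ, against 0.02, 0.03 and -0.005 over all genes.

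In the other strains members were called in both directions. In CAST/EiJ, 3 members were higher (Slc5a7, Gad1 and Gad2; 20.3% of all genes) and 1 lower (Slc17a8; 29.1%). In WSB/EiJ, 3 were higher (Gad1, Slc17a8 and Tfap2b; 12.7%) and 1 lower (Gad2; 21.9%). In A/J, 1 was higher (Gad2; 15.1%) and 2 lower (Slc5a7 and Slc17a8; 12.6%). Slc6a9 in A/J (log2 difference 0.20 ± 0.07, limma, q = 0.0116) was called as well after median-ratio scaling or quantile normalization, among other settings. In C57BL/6J, 2 were higher (Chat and Slc17a8; 12.5%) and 1 lower (Gad2; 10%), and in 129S1/Svlmj, 2 were higher (Slc5a7 and Slc17a8; 14.5%) and 1 lower (Slc18a3; 13.0%). These comparisons share libraries and are not independent of each other.

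Some of these calls rest on little. In 129S1/Svlmj the count fell from 3 to 1 without its replicate 1, where Slc17a8 alone was called. The call of Slc5a7 in A/J (log2 difference -0.19 ± 0.06, q = 0.00489) was lost without A/J replicate 1 or 2, and its sign changed when CAST/EiJ and PWK/PhJ were left out of the comparison. The call of Chat in C57BL/6J (0.28 ± 0.07, q = 0.0015) was lost without C57BL/6J replicate 2, and that of Slc18a3 in 129S1/Svlmj (-0.26 ± 0.09, q = 0.00883) under 14 of 34 alternatives. Of all genes called in NOD/ShiLtJ 62.0% were higher, a share of 51.2% after median-ratio scaling, and in WSB/EiJ these shares were 36.7% and 49.3%.

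**Figure D3:**
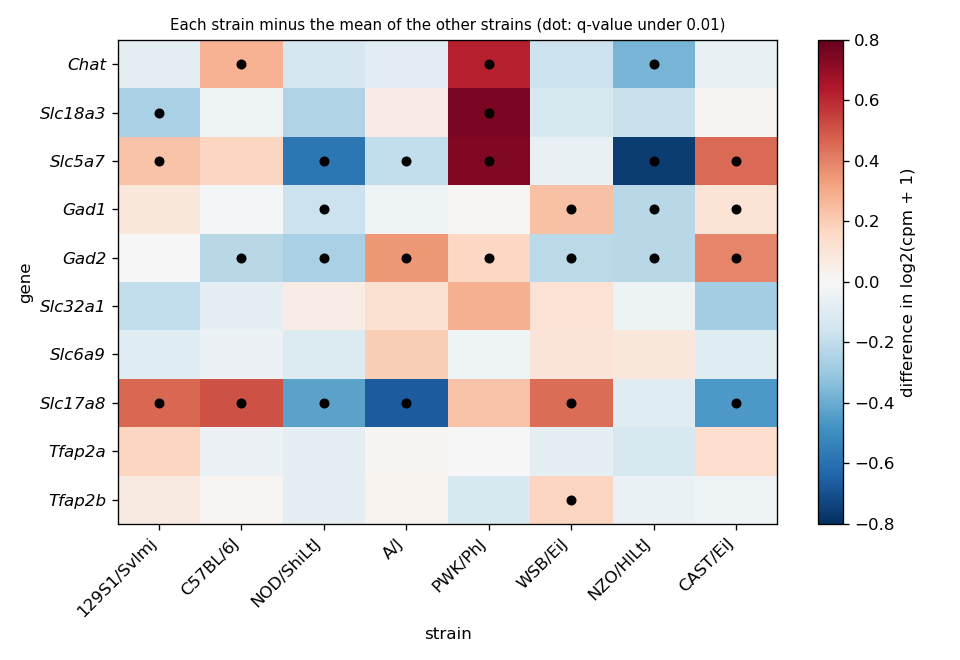
Difference of each strain (columns) from the mean of the other 7 strains, in log2(cpm + 1), for each gene (rows). Red is higher, blue is lower, and a dot marks a q-value under 0.01. The largest differences were 0.75 for Slc18a3 in PWK/PhJ and -0.76 for Slc5a7 in NZO/HlLtJ, and the rows of Slc32a1, Slc6a9 and Tfap2a have no dot.

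Over all strains at once, limma's moderated F-test gave all 10 members a q-value under 0.01, as it did 97.2% of all genes tested, so this count does not set the members apart. With so many genes different, this limit reached an unadjusted p of 0.466. By the Benjamini-Hochberg adjusted p under 0.05, 6 members passed, against 82.1% of all genes. They were Slc5a7 (adjusted p = 4.73e-12), Gad2 (6.87e-10), Slc17a8 (3.98e-08), Chat (3.67e-07), Gad1 (5.05e-07) and Slc18a3 (6.06e-06), from limma's F-test. Slc6a9 (0.0578), Tfap2b (0.0599), Tfap2a (0.102) and Slc32a1 (0.148) did not pass. Over the 280 tests of members in pairs of strains, 97 were called (34.6%), near the 30.5% of all genes. The ratio of highest to lowest strain mean had a median of 1.48 over the members and 1.46 over all genes tested. By this measure the members as a whole differed between strains about as much as other genes. Their median share of variance between strains was higher (85.7%, against 75.5% over all genes tested), as was their median log2 range (0.528 against 0.426). These gaps were not tested.

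Genes that set or mark amacrine identity were listed as well. Of 28 such genes 27 were in the table and 23 were tested, and 195 of 644 tests over pairs were called (30.3%), about the 30.5% over all genes. The median ratio of highest to lowest mean was 1.41. Among those that differed most were Isl1, which in the inner retina marks starburst amacrine, bipolar and ganglion cells (24.9 ± 2.51 cpm in CAST/EiJ to 41.9 ± 2.65 in NZO/HlLtJ, q = 7.65e-09) and Tfap2d, a further AP-2 factor gene (0.709 ± 0.0473 in CAST/EiJ to 1.22 ± 0.186 in PWK/PhJ, q = 0.000194).

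Markers of other retinal cells moved between strains too, and their part in the differences above was not tested. The summed ganglion cell markers (8 genes, Nefl the most abundant) averaged 149.5 ± 1.96 cpm in CAST/EiJ and between 182.6 in A/J and 251.6 in C57BL/6J elsewhere, and 7 of the 8 were called lower in CAST/EiJ, as were 29.1% of all genes. Horizontal cell markers, of cells that also use Gad1, Slc32a1 and AP-2 factors, summed to between 23.6 ± 0.912 cpm in NZO/HlLtJ and 31.1 ± 0.660 in C57BL/6J (4 genes, Calb1 the most abundant). Müller glia markers summed to between 895.2 ± 30.4 cpm in WSB/EiJ and 1153 ± 31.5 in NOD/ShiLtJ (6 genes, Glul the most abundant). Bipolar cell markers (7 genes, Trpm1 the most abundant) summed to 470.1 ± 8.97 cpm in C57BL/6J and 641.7 ± 42.4 in WSB/EiJ.

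Some libraries held RNA of tissue next to the retina. The 5 lens genes, Cryaa the most abundant, summed to 1553 cpm in 129S1/Svlmj replicate 2, 1733 in NOD/ShiLtJ replicate 2 and 200.3 in C57BL/6J replicate 2, and to at most 84.1 cpm in the others. Without these 3 libraries, a choice made after the data were seen, Chat was no longer called in C57BL/6J, and the other calls against the other strains named above held. The 5 pigment epithelium genes, of which Rgr was the most abundant, summed to 52.5, 29.9 and 31.7 cpm in WSB/EiJ, to 12.2, 32.3 and 56.5 in A/J, and to 26.3 or less in the other strains. With their sum as a covariate, also chosen afterwards, Slc18a3 and Slc5a7 in 129S1/Svlmj, Slc5a7 in A/J, Gad2 in PWK/PhJ and Gad2 in WSB/EiJ were no longer called. The 4 globin genes, Hbb-bs the most abundant, summed to between 7.15 and 30.0 cpm. Xist was at 962.1 cpm in 129S1/Svlmj replicate 3, 906.2 in C57BL/6J replicate 3, 1081 in PWK/PhJ replicate 2 and 1046 in CAST/EiJ replicate 3, and at most 9.71 cpm in the other 20 libraries. Ddx3y, a gene of the Y chromosome, was at most 0.118 cpm in the former and at least 24.8 in the latter. By these genes sex was not balanced over strains, since NOD/ShiLtJ, A/J, WSB/EiJ and NZO/HlLtJ had only libraries of the male pattern. With the log2 value of Xist as a covariate the cholinergic calls in PWK/PhJ held. Those of Slc18a3 in 129S1/Svlmj and Tfap2b in WSB/EiJ were lost, and Chat was newly called in WSB/EiJ.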

How the data were processed

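The authors mapped reads with STAR, counted them in Partek and deposited normalized values in cpm with 0.0001 added. Of the values above 0 and under 20 estimated reads, 88.7% to 90.6% per library lay within 0.05 reads of a whole number, and the rest did not, so no count test was used. Genes averaging 0.5 cpm or more over the libraries entered the comparison, on log2(cpm + 1), with limma 3.58.1 in R 4.3.3 (empirical Bayes with a trend): an F-test over 8 strains, 28 pairs, and each strain against the mean of the other 7. A call is a Storey q-value under 0.01 over all genes tested. The q-values were computed within each comparison, so like differences can be called in 1 pair and not in another. The highest and lowest strain of each member were picked from these data. Their q-values are adjusted neither for this choice nor for the 28 pairs. Python 3.11.15, pandas 2.3.3, numpy 2.4.6 and matplotlib 3.10.9 served for tables and figures. Exon lengths and positions are from GENCODE M21. The members and lists were chosen with earlier results of these data known. In each list of transmitter genes and in that of amacrine identity, the 3 tested genes with an F-test q-value under 0.01 and the largest ratio of highest to lowest strain mean are named, except for an item that is not reported here. The median depth estimated from the value of 1 read was 68.9 M reads per library.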

Additional observations from a re-analysis of the deposited data

How the results depend on the processing

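With a mean of at least 5 cpm required, Chat, Slc18a3, Slc17a8 and Tfap2a are left out of testing. The members differing between strains then fell from 10 to 6, and the calls over pairs from 97 to 62. Members called fell from 3 to 1 in 129S1/Svlmj, from 3 to 1 in C57BL/6J and from 4 to 2 in PWK/PhJ. By the Benjamini-Hochberg adjusted p under 0.05, 6 members differed between strains, and 114 calls were made over pairs. With no filter on low values, 8 members differed between strains, with 88 calls over pairs. Quantile normalization gave 10 members and 108 calls over pairs. With the pigment epithelium sum as a covariate, chosen after the data were seen, 1 member was called in 129S1/Svlmj, and the cause was not tested.

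Leaving out each library in turn gave 10 to 10 members differing between strains and 90 to 102 calls over pairs. The members called ranged from 1 to 3 in 129S1/Svlmj (1 without its replicate 1), 2 to 4 in C57BL/6J, 4 to 4 in NOD/ShiLtJ, 2 to 4 in A/J, 4 to 5 in PWK/PhJ, 3 to 4 in WSB/EiJ, 4 to 4 in NZO/HlLtJ and 3 to 5 in CAST/EiJ. No paired analysis was made, since the libraries compared are of different strains and the labels link none of them across strains. The replicate numbers used here follow the order of deposition and mark no pairs. For the difference of each member between its highest and lowest strain, 235 of the leave-one-out fits kept the direction and the side of the threshold, though not the size, and 5 no longer passed (Slc32a1 and Tfap2b). Of the other settings 91 kept both, 4 newly passed (Slc6a9 and Tfap2a), 1 no longer passed (Slc32a1) and 0 were reversed.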
